A study of Homo sapiens with 8 samples.

Results

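Whether progesterone and the antiprogestin RU-486 act additively was measured in the established human astrocytoma line U373, over all 18417 genes of a whole-transcript microarray. For each gene the mean log2 level of cells given both steroids was taken, the means of cells given RU-486 alone and progesterone alone were subtracted, and the vehicle mean was added. This value, called the interaction here, is 0 where the differences made by the 2 steroids add up on the log2 scale. It equals the RU-486 difference in the presence of progesterone minus that in its absence, and likewise the progesterone difference with RU-486 minus that without. All 8 arrays entered it, 2 in each of 4 groups: vehicle, 10 nM progesterone, 1 µM RU-486, and the combination at the same concentrations, each given for 12 h. Before treatment all cells spent 24 h in medium whose serum had been freed of hormones, so the vehicle group received no added steroid. No gene was left out for its level, so the members were 18417 of 18417 genes and 8 of 8 arrays.

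RU-486 is the name in the titles and in the treatment protocol, whereas the descriptions of these samples carry another compound number, and the field for the line holds a truncated name. Replicates are labelled biological, but whether each was a culture of its own is not said, so p-values measure only the spread between these arrays, which may be technical. The astrocyte and mesenchymal filament gene VIM and the glial marker S100B were well above the array background, which was set at the level under which 95% of 341 olfactory receptor genes lay, a log2 level of 6.22. Olfactory receptors are seldom transcribed outside the nose. A gene counted as above background where its highest group mean passed that level. Array medians ran from 6.93 to 7.02, and the number of arrays limits the precision.

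Progesterone enters the cell, binds the progesterone receptor and turns it into a transcription factor at hormone response elements in DNA. RU-486, or mifepristone, occupies the same receptor without activating most of its targets, and it also blocks the glucocorticoid receptor. Where a hormone acts through a receptor that an antagonist blocks, the hormone's effect should be smaller in the presence of the antagonist, and the interaction would have the opposite sign to the hormone's own effect.

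Of the receptors that could carry such an interplay, PGR, the progesterone receptor itself, was in the range of the array background. Its log2 levels were 4.59 and 4.44 in vehicle, 4.91 and 4.55 with progesterone, 4.49 and 4.75 with RU-486 and 4.57 and 4.49 with the combination, and the groups overlapped. Its interaction was -0.31 ± 0.20 (SE), with a 95% interval from -0.79 to 0.17 (limma adjusted p = 0.828). NR3C1, the glucocorticoid receptor, was clearly measured, at 10.07 and 10.17 in vehicle, 9.88 and 10.20 with progesterone, 9.92 and 10.07 with RU-486 and 9.61 and 9.76 with the combination. Both combination arrays lay below the other 6, and the interaction was -0.23 (interval -0.65 to 0.18). PGRMC2, a progesterone-binding membrane protein, had an interaction of -0.04 (-0.37 to 0.30), and PAQR8, a membrane progestin receptor, of -0.002 (-0.33 to 0.33). The mineralocorticoid receptor gene NR3C2 and the estrogen receptor gene ESR1, both below the background level, were at 0.27 (0.00 to 0.54) and 0.10 (-0.23 to 0.42). PGRMC1 was not analysed here. Receptors as a list, 12 measured genes of which 5 were above background, had 3 members above 0 (25%) and a median interaction of -0.14. The median over all genes was 0.01. Among genes of the same deciles by mean level 45.3% lay above 0, and the medians of those deciles averaged -0.02.

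No gene showed a non-additive response that passed correction. In limma's fit over all 18417 genes 0 were called (0%), the smallest adjusted p was 0.828, and 972 genes (5.28%) had an unadjusted p under 0.05. Of these 678 (3.68%) were higher and 294 (1.6%) lower with both steroids than the single steroids add up to. With the replicate number as a block, again 0 genes were called and the smallest adjusted p was 0.606, while 1504 genes had an unadjusted p under 0.05, 885 higher and 619 lower. With each array centred on its median this count was 1488, of which 87.0% were higher instead of 69.8%. The count turned on single arrays, though it hardly changed without combination replicate 2. It was 2691 without progesterone replicate 1 and 3313 without progesterone replicate 2, and in the last case 37.0% were higher. It was 496 without vehicle replicate 1, 550 without vehicle replicate 2, 492 without RU-486 replicate 1, 523 without RU-486 replicate 2 and 464 without combination replicate 1. No gene was called in any of these fits.

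Over genes the root mean square of the interaction was 0.21. The differences between replicates of the 4 groups, taken as independent, gave 0.23 for the same quantity, and 0.18 when arrays were paired by replicate number. The progesterone pair supplied 58.6% of the first value, since its 2 arrays differed by an SD of 0.35 over genes, where the SD was 0.16 in RU-486, 0.17 in the combination and 0.18 in vehicle. The median SE of a gene's interaction was 0.16, or 0.13 with the replicate number as a block. Without the block the median 95% interval reached 0.37 to either side. For 17105 genes (92.9%) the whole interval lay within 1 log2 unit of 0, and for 11201 genes (60.8%) it lay within a 1.5-fold change in either direction. A larger departure from additivity lay outside the intervals of those genes, and a smaller one was not detectable with 2 arrays a group. Interactions of more than 1 log2 unit in genes named below did not pass correction either.

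Beyond 1.5-fold lay 179 genes (0.972%), 69 (0.375%) above and 110 (0.597%) below additivity, and the range was -1.24 to 1.48. Among the 69 genes above, the group mean that stood farthest from the other 3 was that of progesterone alone in 45, of the combination in 11, of vehicle in 10 and of RU-486 in 3. Among the 110 below it was the combination in 50, vehicle in 29, progesterone in 22 and RU-486 in 9. Over the other 18238 genes the combination was farthest in 40.6%, progesterone in 24.6%, vehicle in 24.5% and RU-486 in 10.3%. The interaction kept its sign whichever array of each pair was used for 2893 genes (15.7%) above 0 and 1048 (5.69%) below.

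Brightness moved with the sign. Bright genes lay mostly above 0 and dim genes mostly below. In deciles of genes by mean level, chosen after the data were seen and numbered from the dimmest, the median interaction was -0.05 in decile 1 and -0.09 in deciles 3 and 4. It was 0.06 in decile 6, 0.10 in decile 9 and 0.06 in decile 10. Of the genes in decile 3 lay 31.3% above 0, and of those in decile 9 lay 71.1%. Olfactory receptor genes had a median of -0.09, with 120 of 341 above 0. Their mean level was 4.85 on progesterone replicate 1 and between 4.62 and 4.72 on the other 7 arrays. The part of that array in the relation with brightness was not tested. Counts of list members above 0 are therefore to be read beside the share above 0 among genes of the same deciles, given below in brackets.

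In the genes that differed most after RU-486 alone, its difference mostly had the same sign when progesterone was present. The 2 differences use separate arrays, RU-486 against vehicle and the combination against progesterone, so they can be set against each other. Of 20 genes at least 1.5-fold higher after RU-486 alone, 15 were also higher when progesterone was present and 12 again by at least 1.5-fold. Of 24 genes lower by that much, 24 were lower with progesterone and 15 by at least 1.5-fold. Over all genes 56.1% had the same sign in both. The 12 genes higher in both were ASNS, CHAC1, CPT1A, GDF15, NUPR1, PCK2, PHGDH, PSAT1, SLC1A4, SLC6A9, TRIB3 and the small nucleolar RNA gene SNORA60. Apart from SNORA60 and CPT1A they are known as genes of amino acid supply or of the stress response that ATF4 drives. The 15 lower in both, ABCA1, EHF, FAM111B, FAM76B, KIF15, LMBRD2, RPGRIP1L, SAMD9, SGO2, SMC2, SMC3, THOC2, ZBTB41, ZFYVE16 and ZNF654, include the cholesterol exporter ABCA1, the mitotic kinesin KIF15 and the chromosome structure genes SMC2, SMC3 and SGO2. ABCA1 stood at 10.02 and 10.26 in vehicle, 9.96 and 10.29 with progesterone, 9.42 and 9.56 with RU-486 and 9.25 and 9.34 with both, with no overlap between arrays with and without RU-486. Its interaction was -0.19 (interval -0.65 to 0.27). The SE of that value was 0.19, whereas the interactions of KIF15, SGO2, SMC3 and SMC2 had SEs of 0.57 to 0.79.

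Most genes at least 1.5-fold lower after progesterone alone were small RNA genes, 23 of 33. Of these 33 genes 20 were lower in the combination than with RU-486 alone, 9 of them by at least 1.5-fold. Of 13 genes higher by that much, 5 were higher in the presence of RU-486 and 0 by at least 1.5-fold. These counts turned on the progesterone pair. Without progesterone replicate 2 there were 466 lower genes, 401 of them lower with RU-486 too, and 370 higher ones, 200 of them higher with RU-486 too. Without progesterone replicate 1 there were 41 lower genes, 28 of them lower again, and 182 higher ones, 8 of them higher again. Without vehicle replicate 1 the 33 and 13 were 60 and 49, and without vehicle replicate 2 they were 49 and 29. Over all genes 54.2% had the same sign. Of the 13 genes, 11 were below the background level, and the other 2 were the long noncoding genes LINC01951 and LY86-AS1. The 9 genes lower in both were small RNA genes without exception: RNU5D-1 and RNU5F-1 of the spliceosome, SCARNA1, SNORA41, SNORD82, the vault RNA VTRNA1-2 and 3 members of the imprinted SNORD116 cluster, SNORD116-13, SNORD116-25 and SNORD116-26. Of the 24 that did not reach 1.5-fold again 14 were small RNA genes too. Copies within such families are nearly identical, so probe sets may share signal. Genes chosen for a large difference in one comparison are inflated there, so that a smaller value in the other is to be looked for even with no interaction, and whether the 2 steroids differ in this carry-over was not tested. The difference of RU-486 correlated across genes with that in the presence of progesterone at r = 0.41, and the difference of progesterone with that in the presence of RU-486 at r = 0.14 (Pearson, 18417 genes, which share arrays and are no replicates).

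These correlations depended on the progesterone arrays. For RU-486 r was 0.57 without progesterone replicate 1 and -0.03 without progesterone replicate 2, and it was 0.12 without vehicle replicate 2. For progesterone r was -0.37 without progesterone replicate 1, 0.38 without progesterone replicate 2 and -0.09 without vehicle replicate 2. The tail of genes lower with RU-486 was of the same kind. In the combination against progesterone 503 genes were at least 1.5-fold lower, 497 of which were also lower after RU-486 alone, by a median of 0.35. Without progesterone replicate 2 they were 126, with 45 lower after RU-486 alone, and without progesterone replicate 1 they were 1127, with 1103.

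**Figure D1:**
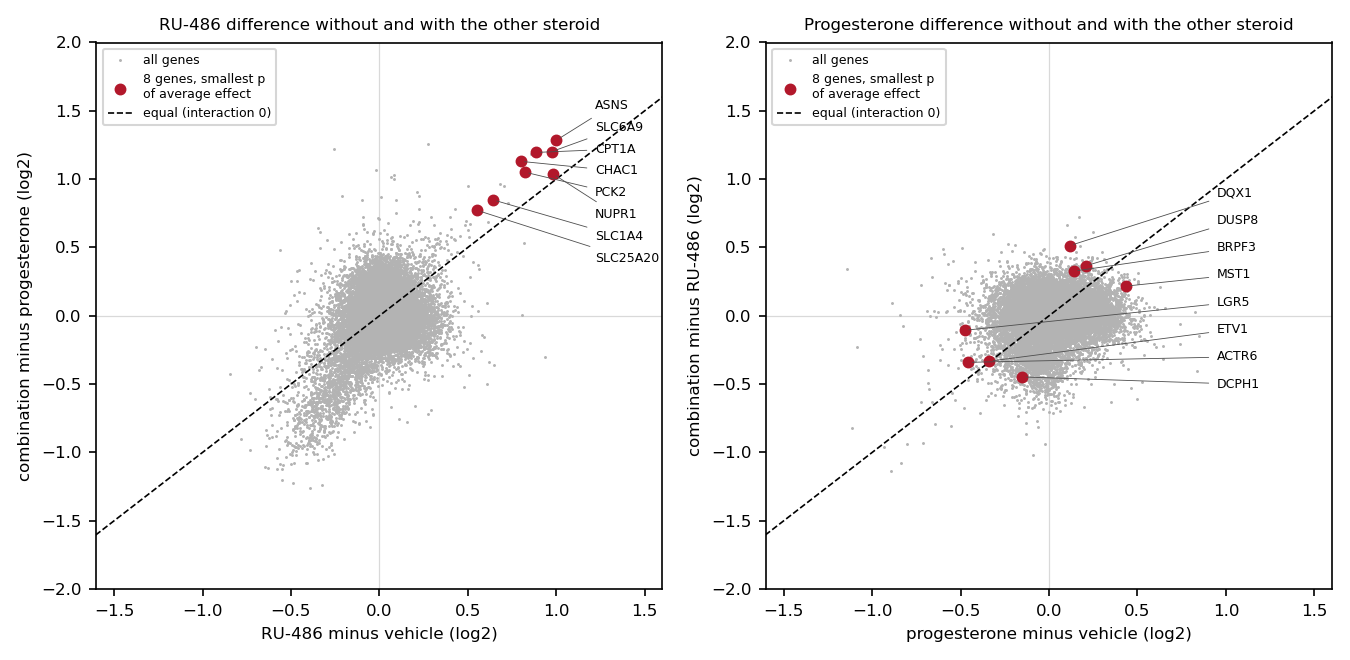
Difference made by each steroid alone (horizontal axis, log2) against the difference it made in the presence of the other (vertical axis, log2), 1 point per gene for 18417 genes, with the 8 genes of smallest p for each average effect in red and a dashed line where both are equal. The RU-486 genes in the left panel lie above the dashed line, by 0.06 to 0.33, and the progesterone genes in the right panel lie on either side of theirs.

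The RU-486 difference was next averaged over both backgrounds, without and with progesterone. The weights of this contrast are orthogonal to those of the interaction, but the 2 estimates are independent only where groups have equal spread. The progesterone pair differed more (SD 0.35 over genes, 0.16 to 0.18 in the other groups). A choice of genes that rise by this contrast therefore favours interactions above 0. By this contrast 6 genes (0.0326%) rose with RU-486 and 0 fell. They were CHAC1, ASNS, SLC25A20, PCK2 and CPT1A (limma adjusted p = 0.0236 each) and NUPR1 (limma adjusted p = 0.0479). With the replicate block 4 of these 6 were called and 2 other genes fell, and none of them was when either vehicle array, either combination array or the second RU-486 array was left out. A fit with 1 array left in a group takes no spread from that group, which matters most for progesterone, the pair with the widest spread. Calls without progesterone replicate 1 are therefore not counted here. Together with SLC6A9 and SLC1A4, next in order of p, the 6 called genes make the 8 described here. All 8 interactions were above 0, from 0.06 to 0.33, at limma adjusted p of 0.828 to 0.942. Of all genes 52.4% lay above 0. The 8 had mean levels of 8.24 to 10.43, in deciles 6 to 9, where the share above 0 was 60.8% to 71.1%.

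ASNS makes asparagine. It stood at 8.81 and 8.85 in vehicle, 8.62 and 8.52 with progesterone, 9.65 and 10.01 with RU-486 and 9.84 and 9.87 with both. All arrays with RU-486 lay above all arrays without it, and the combination lay between the RU-486 arrays. RU-486 alone made a difference of 1.00 and, on top of progesterone, of 1.28. The interaction was 0.28 ± 0.17 (interval -0.12 to 0.69), and leaving out single arrays moved it between 0.11 and 0.46.

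CHAC1, which degrades glutathione, stood at 7.86 and 7.81 in vehicle, 7.77 and 7.58 with progesterone, 8.56 and 8.71 with RU-486 and 8.83 and 8.78 with both. Here both combination arrays lay above both RU-486 arrays and both progesterone arrays below both vehicle arrays. The RU-486 difference was 0.80 alone and 1.13 with progesterone, and the interaction was 0.33 ± 0.14 (interval 0.01 to 0.65, limma adjusted p = 0.828). CPT1A, the gatekeeper enzyme that loads fatty acids onto carnitine for mitochondrial oxidation, stood at 9.87 and 9.76, 9.89 and 9.54, 10.71 and 10.70, and 10.97 and 10.84 in the same order of groups. It had an interaction of 0.31 ± 0.18 (interval -0.11 to 0.73), and SLC25A20, the carnitine carrier that serves the same pathway, one of 0.22 ± 0.11 (-0.05 to 0.48).

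NUPR1, a stress-induced chromatin regulator, had the smallest interaction of the 8, 0.06 ± 0.20 (interval -0.40 to 0.52). Its levels were 10.00 and 9.90 in vehicle, 10.10 and 9.70 with progesterone, 10.88 and 10.99 with RU-486 and 10.88 and 10.997 with both, so the combination and RU-486 arrays nearly coincided. Without progesterone replicate 2 its interaction was -0.14. PCK2, the mitochondrial phosphoenolpyruvate carboxykinase, had an interaction of 0.23 (-0.15 to 0.60), and the amino acid transporters SLC6A9 and SLC1A4 had 0.23 (-0.29 to 0.75) and 0.21 (-0.18 to 0.60). For each of the 8 the RU-486 difference was larger with progesterone present, 0.77 to 1.28, than without, 0.55 to 1.00. This restates that the 8 interactions were above 0, and none passed.

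**Figure D2:**
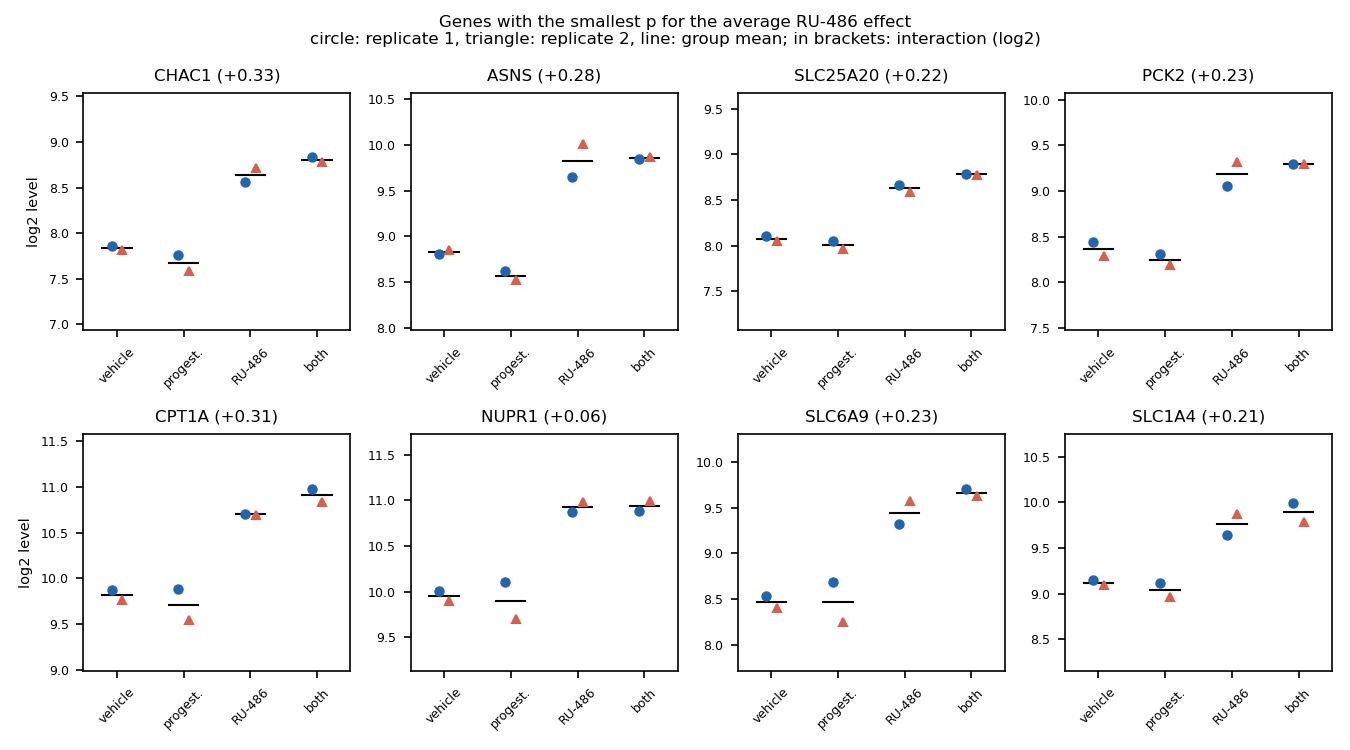
Log2 level on each of the 8 arrays (vertical axis) by group (horizontal axis) for the 8 genes with the smallest p for the average RU-486 effect, with circles for replicate 1, triangles for replicate 2, lines for group means and the interaction in brackets. In each panel the RU-486 and combination arrays lie above the vehicle and progesterone arrays.

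The upstream sequences of ASNS and CHAC1 are shown because both genes are textbook targets of ATF4 and led this response, and that of SESN2 because it is the stress gene with the largest interaction described below. Each line gives the 250 bases before the RefSeq start (GRCh38.p14), 5′ to 3′ along the gene: ASNS at chr7:97872409-97872658 on the minus strand, CHAC1 at chr15:40953221-40953470 on the plus strand and SESN2 at chr1:28259268-28259517 on the plus strand. Capitals mark matches on either strand to TGATGNAA, the core of the amino acid response element that ATF4 binds.
ASNS: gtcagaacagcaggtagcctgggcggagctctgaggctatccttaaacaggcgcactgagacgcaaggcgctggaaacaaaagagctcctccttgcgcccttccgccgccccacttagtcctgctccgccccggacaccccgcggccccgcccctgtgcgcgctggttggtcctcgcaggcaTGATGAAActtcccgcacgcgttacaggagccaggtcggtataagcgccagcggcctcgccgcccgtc
CHAC1: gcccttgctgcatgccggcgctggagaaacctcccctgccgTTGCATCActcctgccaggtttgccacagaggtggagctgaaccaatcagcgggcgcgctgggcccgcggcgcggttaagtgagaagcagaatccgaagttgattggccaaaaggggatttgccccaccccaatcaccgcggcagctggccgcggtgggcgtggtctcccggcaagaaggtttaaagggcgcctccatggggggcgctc
SESN2: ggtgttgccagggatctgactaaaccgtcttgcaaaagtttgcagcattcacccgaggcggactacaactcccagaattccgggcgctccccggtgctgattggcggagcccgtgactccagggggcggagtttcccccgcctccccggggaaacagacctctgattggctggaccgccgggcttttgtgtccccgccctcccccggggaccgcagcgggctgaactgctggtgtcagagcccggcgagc

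The match lay 68 to 61 bases before the start in ASNS and 209 to 202 bases before it in CHAC1, where it reads TTGCATCA along the gene, and no match was in the SESN2 window. Of the 8 genes 7 had a promoter in the table, 2 of them with a match, compared with 312 of 14239 promoters (2.19%). The steroid receptor half-site AGAACA, searched on both strands, was in 1 of the 7, ASNS, in 1 of 7 promoters of the average progesterone genes, ETV1, and in 9.08% of all promoters, and the full palindromic hormone response element, which contains it, was in 0 of the 7 and in 1 of 14239. Of the 12 genes named below as furthest above additivity 10 had a promoter, 1 of which (PCOTH) held TGATGNAA and 0 AGAACA. Of the 12 furthest below 7 had one, with AGAACA in 1, ZP3. These matches are letters in a window and describe no binding.

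Genes were next taken by the smallest p for the average progesterone effect. This choice favours genes whose difference persists with RU-486 and passes over genes whose difference is lost, so their persistence is no result. None was called (0%), with 926 genes at an unadjusted p under 0.05 and a limma adjusted p of 0.722 for each of the 8 described. LGR5, a Wnt co-receptor of stem cells, stood at 9.47 and 9.54 in vehicle, 9.01 and 9.05 with progesterone, 9.05 and 9.27 with RU-486 and 9.04 and 9.08 with both. The vehicle arrays lay above the other 6. Progesterone made a difference of -0.48 without and -0.11 with RU-486, RU-486 made -0.34 without and 0.03 with progesterone, and the interaction was 0.37 ± 0.13 (interval 0.06 to 0.68, limma adjusted p = 0.828).

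ETV1, a transcription factor of the ETS family, stood at 7.997 and 8.09 in vehicle, 7.67 and 7.74 with progesterone, 8.08 and 8.32 with RU-486 and 7.80 and 7.94 with both. The arrays with progesterone lay below those without, and the progesterone difference was -0.34 without and -0.33 with RU-486. Its interaction was 0.01, but the interval of -0.35 to 0.36 reaches as far to either side as the difference itself. ACTR6, a subunit of a chromatin remodelling complex, had -0.46 without and -0.34 with RU-486 (interaction 0.12, -0.34 to 0.57), and DCPH1 had -0.15 and -0.45 (-0.30, -0.65 to 0.06). Of the 4 genes with a positive progesterone difference, DQX1 went from 0.12 without to 0.51 with RU-486, an interaction of 0.40 (0.12 to 0.67, limma adjusted p = 0.828), and MST1, a hepatocyte growth factor-like gene, from 0.44 to 0.22 (-0.22, -0.52 to 0.09). The chromatin reader BRPF3 and the phosphatase DUSP8 had interactions of 0.19 and 0.16 with intervals that include 0.

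**Figure D3:**
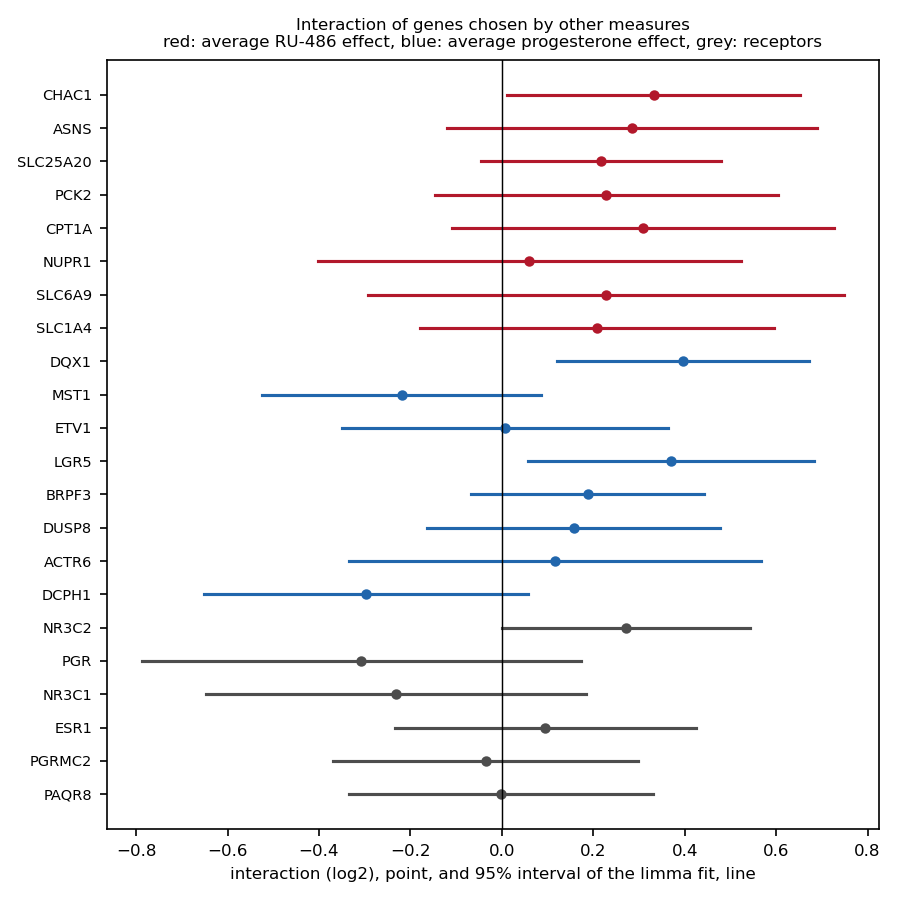
Interaction (points, log2) with its 95% interval from limma (lines) for 8 genes chosen by the average RU-486 effect (red), 8 by the average progesterone effect (blue) and 6 receptors (grey). The intervals of CHAC1, DQX1, LGR5 and NR3C2 lie above 0 and those of the other genes include it.

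The genes farthest from additivity were next described by the value that chose them, so no test of theirs is independent. Their limma adjusted p was 0.828 without exception. The 12 named genes with the smallest p above 0 had interactions of 0.48 to 1.05, and all 12 shared a shape. Each was lower with progesterone alone than with vehicle (-0.59 to -0.17) and higher in the combination than with RU-486 alone (0.17 to 0.45). In 10 of the 12 RU-486 alone lay below vehicle as well, and in all 12 it lay higher on top of progesterone (0.30 to 0.88). The choice by a positive interaction favours this shape, so it is no result.

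SESN2, sestrin 2, a stress-induced inhibitor of mTORC1, is a member of the ATF4 list as well. It stood at 7.68 and 7.64 in vehicle, 7.29 and 7.36 with progesterone, 7.85 and 7.92 with RU-486 and 8.30 and 8.10 with both. The 4 groups did not overlap, and their order ran from progesterone through vehicle and RU-486 to the combination. RU-486 made a difference of 0.22 alone and 0.88 with progesterone, and the interaction was 0.65 ± 0.13 (interval 0.35 to 0.96), between 0.56 and 0.75 with any array left out.

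HSD17B7P2, a pseudogene of a sterol and estrogen synthesis enzyme, had the largest interaction of the 12, 1.05 ± 0.19. It stood at 8.33 and 8.28 in vehicle, 7.54 and 7.88 with progesterone, 7.75 and 7.74 with RU-486 and 8.32 and 8.06 with both. Each steroid alone went with a lower level and both together with a level near vehicle, with the caution that a pseudogene's probe set may share signal with its parent gene. POLR3GL, a subunit of RNA polymerase III, had 6.76 and 7.03, 6.22 and 6.49, 6.65 and 6.95, and 7.24 and 7.16 in the same order, and an interaction of 0.94 ± 0.21. The mitochondrial import gene TIMM23, which has close copies in the genome, was at 0.76 ± 0.15, and the messenger RNA capping cofactor RAMAC at 0.64 ± 0.12. The others were PCOTH (0.67), STEEP1, which helps the innate immune adaptor STING leave the ER (0.61), RPL26L1 (0.53), BNIP1 (0.52), ZSWIM3 (0.51), the proteasome subunit PSMA5 (0.48) and ZKSCAN4 (0.48).

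The 12 named genes below 0 had the mirrored shape at low levels. Each steroid alone went with a higher mean than vehicle in all 12 (progesterone 0.13 to 0.54, RU-486 0.06 to 0.61), and each made a negative difference on top of the other. Their mean levels ran from 6.14 to 8.12, and those of the 12 genes above 0 from 6.81 to 10.43. The choice by a negative interaction and the background rule, which takes the highest group mean, both favour this shape, so it is no result. ZNF487 and CYTH4 passed the background level only in the single-steroid groups, and SCGB1A1 only with progesterone alone. ZNF487, a zinc finger gene, stood at 5.99 and 6.27 in vehicle, 6.75 and 6.50 with progesterone, 6.70 and 6.77 with RU-486 and 6.09 and 6.16 with both. Both single-steroid pairs lay above both the vehicle and the combination pairs. Its interaction was -1.11 ± 0.18 (interval -1.53 to -0.69). The protocadherin pseudogene PCDHB18P had 6.44 and 6.52, 6.91 and 7.07, 6.59 and 6.62, and 6.46 and 6.44 in the same order, with progesterone alone above the rest and an interaction of -0.66 ± 0.12. The other 10 were GOT1L1 (-0.72), SCGB1A1 (-0.59), CEBPE (-0.58), TYROBP (-0.56), CYTH4 (-0.52), PERM1 (-0.51), RAB33B (-0.51), SLC18A3 (-0.45), ZP3 (-0.41) and KRT10 (-0.41). Several are known from tissues other than brain, such as SCGB1A1 from airway, CEBPE and TYROBP from myeloid cells and ZP3 from oocytes.

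**Figure D4:**
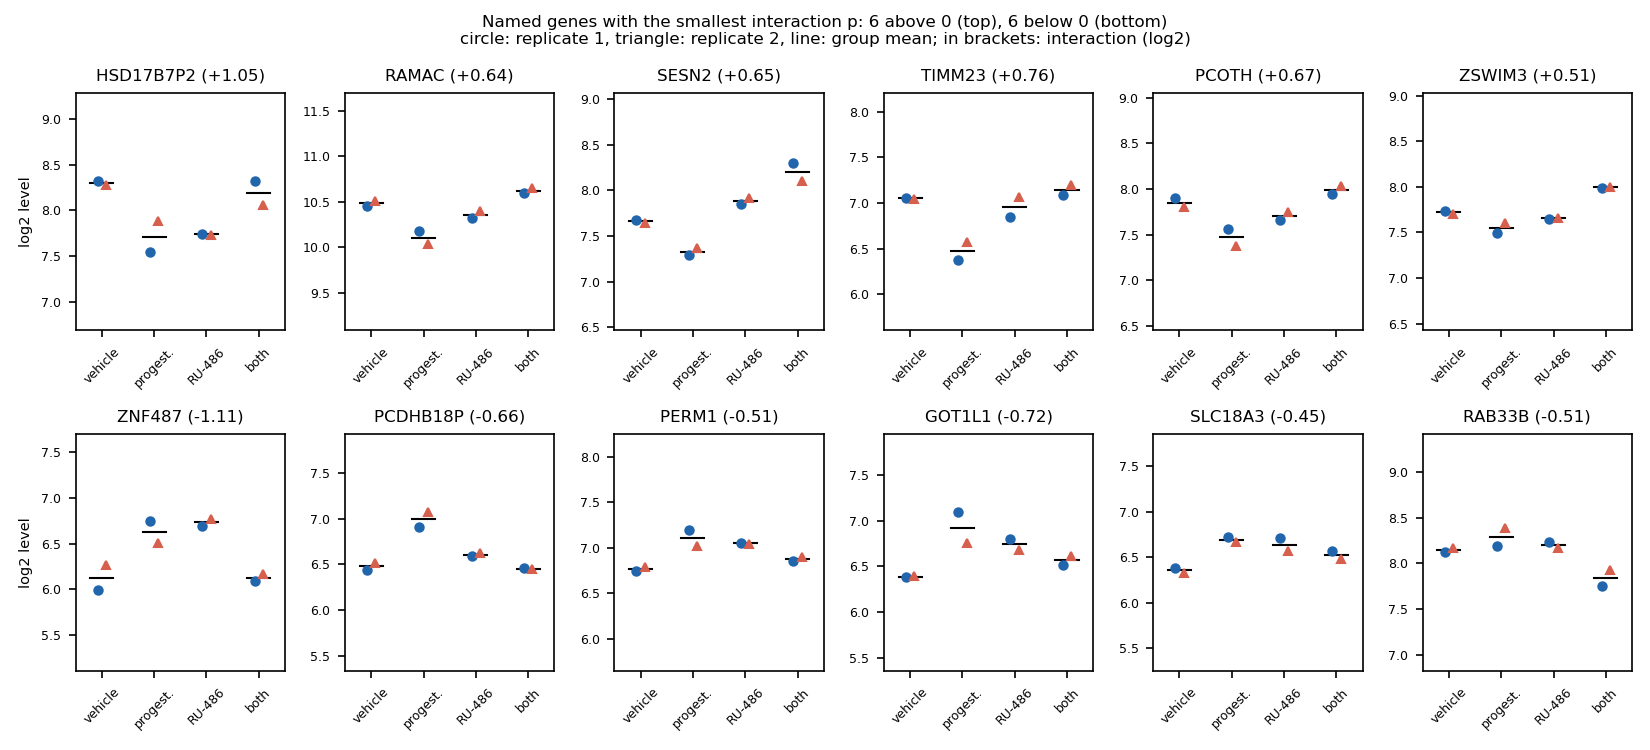
Log2 level on each array (vertical axis) by group (horizontal axis) for 6 genes above additivity in the top row and 6 below it in the bottom row, with circles for replicate 1, triangles for replicate 2, lines for group means and the interaction in brackets. In the top row the mean with progesterone alone lies below those of vehicle and the combination, and in the bottom row it lies above both.

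Small RNA genes were frequent among the values past 1.5-fold above additivity, a class picked after the values were seen. They make up 414 of the 18417 genes, and they were 24 of the 69 genes above and 5 of the 110 below additivity. Over the whole class the median interaction was 0.0009, and its root mean square of 0.31 was close to the 0.30 that the replicate differences of these genes give, which was 0.23 over all genes. The smallest p of all genes belonged to SNORA14B, an RNA that guides pseudouridylation, with 7.30 and 7.26 in vehicle, 6.68 and 6.68 with progesterone, 7.01 and 7.13 with RU-486 and 7.63 and 7.48 with both. The 4 pairs did not overlap, and the interaction was 1.09 ± 0.12 (limma adjusted p = 0.828). Its close copy SNORA14A was at 0.75 ± 0.12, with 10.00 and 10.02, 9.26 and 9.10, 9.76 and 9.82, and 9.74 and 9.69 in the same order. The progesterone arrays lay below the rest in SNORA14A. The highest interaction of all, 1.48 ± 0.39, was that of VTRNA1-1, which encodes a vault RNA, with 7.495 and 7.54 in vehicle, 5.93 and 6.82 with progesterone, 7.41 and 7.11 with RU-486 and 7.78 and 7.42 with both.

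Over the 193 small nucleolar and Cajal body RNA genes, which guide chemical modification of ribosomal and spliceosomal RNA, 128 lay above 0, or 66.3%, where genes of the same deciles gave 49.3%. Their median interaction was 0.10. At an unadjusted p under 0.05 were 21 of the 193 higher and 1 lower, where the shares over all genes were 3.68% and 1.6%. The median progesterone difference was -0.18 without RU-486 and -0.04 with it. Their mean level was 7.17 and 7.12 in vehicle, 6.86 and 6.98 with progesterone, 7.13 and 7.18 with RU-486 and 7.04 and 7.11 with both, so the progesterone arrays were lowest. Such RNAs are short and partly lost in some RNA preparations, and the part of RNA recovery was not tested.

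Several pathway lists, those of ATF4 and its targets among them, had more members above 0 than genes of the same deciles, without calls or a test. The excess was similar in lists of other pathways described below, such as immediate early genes and hypoxia. The ATF4, amino acid and ER stress list had 31 of 38 measured members above 0 (81.6%, compared with 64.8% among genes of the same deciles and 52.4% of all genes), with a median interaction of 0.17. Its members ran from -0.84 to 0.65. The median RU-486 difference of the list was 0.33 alone and 0.43 with progesterone. No member was called, and 4 were higher and 1 lower at an unadjusted p under 0.05. Such counts, here and in the lists below, are to be read beside 3.68% higher and 1.6% lower of all genes. The list median was 0.25 without progesterone replicate 1 and 0.09 without progesterone replicate 2. Beside SESN2 the member with the smallest p was DDIT3, which encodes CHOP, the stress-induced partner of ATF4. It stood at 8.75 and 8.70 in vehicle, 8.25 and 8.47 with progesterone, 8.87 and 8.96 with RU-486 and 9.01 and 9.10 with both. The groups did not overlap, in the same order as for SESN2. RU-486 made a difference of 0.19 alone and 0.69 with progesterone (interaction 0.50 ± 0.14, interval 0.18 to 0.83).

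Aminoacyl-tRNA synthetases, which charge tRNAs and are also ATF4 targets, had 16 of 19 members above 0 (84.2%, same deciles 69.6%) and a median of 0.13. Their median RU-486 difference was 0.05 alone and 0.28 with progesterone. YARS1 was at 0.45 ± 0.16 and FARSB at 0.36 ± 0.11, and 2 of the 19 members were higher at an unadjusted p (3.68% of all genes). ER chaperones had 14 of 19 above 0 (73.7%, same deciles 68.0%) with a median of 0.07, where DNAJB9, a cochaperone of the ER, was at 0.52 ± 0.16 and HSP90B1, the ER member of the HSP90 family, at -0.37 ± 0.17.

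Sterol and fatty acid synthesis genes driven by SREBP had the highest list median, 0.19, with 23 of 28 above 0 (82.1%, same deciles 66.0%). The median progesterone difference in this list was -0.13 alone and 0.09 with RU-486, and the median RU-486 difference was -0.04 alone and 0.09 with progesterone. INSIG1, which holds SREBP in the ER, stood at 11.14 and 11.20 in vehicle, 11.06 and 10.96 with progesterone, 10.87 and 10.93 with RU-486 and 11.07 and 10.98 with both, with vehicle above the rest (interaction 0.28 ± 0.12). NPC1L1, a sterol transporter near the background level, was at -0.44 ± 0.14. The list median was 0.25 without progesterone replicate 1 and 0.10 without replicate 2. Fatty acid oxidation and PPAR targets had 24 of 35 above 0 (68.6%, same deciles 57.4%) and a median of 0.06. In that list FABP4, a fatty acid binding protein, stood at 7.57 and 7.01 in vehicle, 6.21 and 6.59 with progesterone, 7.41 and 7.70 with RU-486 and 7.62 and 7.69 with both. Both progesterone arrays lay below the other 6, the progesterone difference was -0.89 alone and 0.10 with RU-486, and the interaction was 0.98 ± 0.29 (interval 0.29 to 1.68). PPARD, a nuclear receptor for fatty acids, was at 0.32 ± 0.11. Liver X receptor targets had 7 of 14 above 0 (same deciles 48.7%) and a median of -0.02, with ABCG1 at 0.29 and ABCG4 at -0.37.

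Lists of the hormone receptors' own targets had medians near 0 that depended on which progesterone array was used. The list of breast and endometrial progesterone receptor targets had 16 of 30 members above 0 (53.3%, same deciles 52.8%) and a median of 0.01, the same as all genes, with 0 higher and 1 lower (WNT4, -0.33 ± 0.14) at an unadjusted p. The median was 0.14 without progesterone replicate 1 and -0.04 without replicate 2. Glucocorticoid receptor targets had 21 of 39 above 0 (53.8%, same deciles 53.5%) and a median of 0.01, which was 0.06 and -0.01 in the same order. ARRDC2, an arrestin-domain gene, was at 0.43 ± 0.16 and CYP7B1, a steroid hydroxylase near the background, at 0.36 ± 0.15. Receptor chaperones and coregulators had 11 of 15 above 0 with a median of 0.12 (73.3%, same deciles 69.9%), where PTGES3, the p23 cochaperone of steroid receptors, was at 0.44 ± 0.15 and DNAJA1 at 0.31 ± 0.11. Steroid metabolism genes had 18 of 30 above 0 (60.0%, same deciles 49.6%) and a median of 0.07. Targets of the drug-sensing receptors PXR and AhR, to which RU-486 is a ligand in the case of PXR, had 13 of 20 above 0 (65.0%, same deciles 50.7%) and a median of 0.06, with 0 members at an unadjusted p under 0.05 in either direction.

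The G1/S list had a median above 0, and the median of the G2/M list was near 0 and changed sign with the progesterone array used. Genes of G1/S and DNA replication had 34 of 40 above 0 (85.0%, same deciles 69.2%) and a median of 0.16, and this median was 0.16 without progesterone replicate 1 and 0.14 without replicate 2. CCNE1, cyclin E1, was at 0.41 ± 0.13 and CDC6, which loads the replicative helicase, at -0.35 ± 0.11. G2/M genes had 17 of 43 above 0 (39.5%, same deciles 68.6%) and a median of -0.04, with -0.16 without progesterone replicate 1 and 0.03 without replicate 2, and 0 members at an unadjusted p under 0.05. The mean level of the G2/M list was 10.1 on progesterone replicate 1 and 10.7 on replicate 2, a wider gap than in any other group. DLGAP5, a spindle gene, shows it, with 9.58 and 9.87 in vehicle, 9.49 and 10.35 with progesterone, 9.23 and 9.42 with RU-486 and 8.55 and 8.77 with both. The combination was lowest, and the interaction was -0.87 ± 0.37 (interval -1.73 to 0.004). In bulk RNA fewer cells in a phase and less RNA per cell cannot be told apart. Replication-dependent histones had 26 of 44 above 0 (59.1%, same deciles 59.6%) and a median of 0.07, with H2AC20 at -0.52 ± 0.17 and H2BC17 at 0.29 ± 0.10.

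The medians of the signalling and inflammatory lists depended widely on the progesterone pair. Immediate early genes and ERK feedback had 32 of 39 above 0 (82.1%, same deciles 59.6%) and a median of 0.14, which was 0.28 without progesterone replicate 1 and 0.02 without replicate 2. ETV4, an ERK-responsive ETS factor, was at 0.56 ± 0.20 and EGR3 at -0.30 ± 0.11. NF-kappaB targets and cytokines had 16 of 24 above 0 (66.7%, same deciles 50.3%) and a median of 0.13. At an unadjusted p 4 of the 24 were higher (3.68% of all genes). CASP4, the inflammatory caspase that senses bacterial lipopolysaccharide, stood at 8.28 and 8.39 in vehicle, 7.93 and 7.998 with progesterone, 8.25 and 8.29 with RU-486 and 8.35 and 8.34 with both. IL18, an interleukin of the inflammasome pathway, stood at 9.65 and 9.34, 8.84 and 8.99, 9.34 and 9.48, and 9.41 and 9.48 in the same order. In both genes progesterone alone lay below the other 6 arrays, and the interactions were 0.45 ± 0.11 and 0.61 ± 0.17. Interferon-stimulated genes had 16 of 38 above 0 (42.1%, same deciles 46.8%) and a median of -0.05, with MX1 at 0.33 ± 0.10 and OAS3 at 0.49 ± 0.16, and the median was -0.13 without progesterone replicate 1 and 0.04 without replicate 2.

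The remaining lists had medians between 0.01 and 0.12. The highest was that of hypoxia and glycolysis, with 23 of 27 above 0 (85.2%, same deciles 66.4%) and 0 members at an unadjusted p, followed by alpha-arrestins and MondoA targets at 0.11. Circadian clock genes had a median of 0.07, with BMAL1, the core activator of the clock, at 0.47 ± 0.12. It stood at 8.80 and 8.92 in vehicle, 8.62 and 8.65 with progesterone, 8.68 and 8.79 with RU-486 and 8.98 and 8.98 with both, and the combination was highest. Glioma growth factors had a median of 0.06, with PDGFA at 0.54 ± 0.15, and p53 targets had 0.04, with SESN1 at 0.47 ± 0.13 beside SESN2. Extracellular matrix and invasion genes had 0.03, with the stromelysin MMP3 at 0.63 ± 0.17 and the dim collagenase MMP1 at 0.51 ± 0.19. Semaphorins and plexins had 0.01, with SEMA4D and SEMA7A at 0.47 each. NRF2 targets and metallothioneins had 0.03, with the metallothionein MT1F at -0.45 ± 0.17 (RU-486 difference 0.52 alone, 0.07 with progesterone) and thioredoxin, TXN, at 0.46 ± 0.19. TGF-beta, Notch and Hedgehog targets had 0.04, oxidative phosphorylation 0.06 and ribosomal proteins 0.03.

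**Figure D5:**
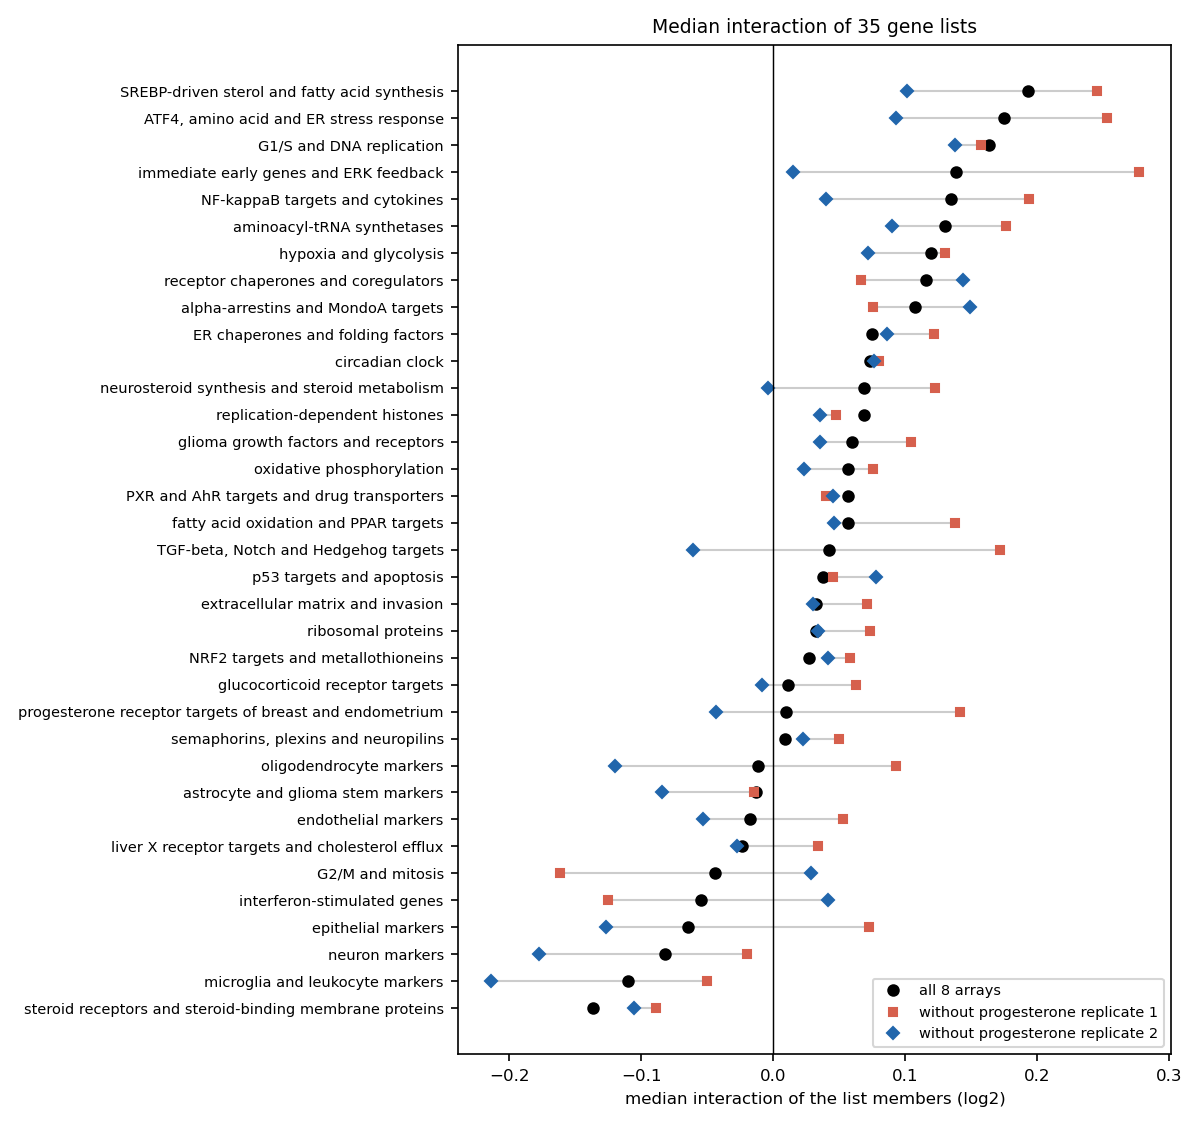
Median interaction (horizontal axis, log2) of the measured members of 35 gene lists (vertical axis) with all 8 arrays (black), without progesterone replicate 1 (squares) and without progesterone replicate 2 (diamonds). The SREBP, ATF4 and G1/S lists are among 21 lists above 0 in all 3 cases, 4 lists lie below 0 in all 3, and 10, among them G2/M, interferon and progesterone receptor targets, change sign.

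Markers of cells other than astrocytes were in part above background, 8 of 15 for neurons and 7 of 10 for epithelium. It was 5 of 11 for oligodendrocytes, 5 of 14 for microglia and leukocytes and 3 of 11 for endothelium. The medians of these lists lay below 0 with all 8 arrays. Astrocyte and glioma stem markers had 10 of 21 above 0 (47.6%, same deciles 59.3%) and a median of -0.01, and S100B was at -0.37 ± 0.18. Neuron markers had 4 of 15 above 0 (26.7%, same deciles 41.0%) with a median of -0.08, and microglia and leukocyte markers 3 of 14 (21.4%, same deciles 39.1%) with -0.11. Oligodendrocyte markers had 5 of 11 (45.5%, same deciles 43.6%), endothelial markers 5 of 11 (45.5%, same deciles 42.7%) and epithelial markers 4 of 10 (40.0%, same deciles 43.4%), with medians of -0.01, -0.02 and -0.07. Without progesterone replicate 1 the last 3 medians were 0.09, 0.05 and 0.07, above 0. The mean level of the microglia and leukocyte list was 5.91 and 5.76 in vehicle, 6.14 and 5.92 with progesterone, 5.94 and 5.95 with RU-486 and 5.99 and 5.99 with both, highest on progesterone replicate 1, and 5 of its 14 members were above background. The T cell gene CD3E, below background, was at -0.62 ± 0.17 and TYROBP, as above, at -0.56 ± 0.17. The part of other cells in these values was not tested.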

How the data were processed

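Total RNA of 8 samples (4 groups of 2) was labelled for a whole-transcript Affymetrix array. The deposited table holds, on a log2 scale, the expression of 33297 probe sets on each array. RMA, oligo and limma are named per the submitters' processing notes, and versions, settings and other filters are not given in the sources used here. RMA, as a method, equalises arrays, which removes shifts shared by most genes and compresses differences of dim genes.

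Of the probe sets 19460 pair with 1 symbol in the platform annotation (19429 matched RefSeq, GRCh38.p14, used for names and promoter windows, with 0 symbols updated), 1754 with several and 12083 with none listed. For 769 genes with several probe sets that with the highest mean was kept, which left 18417 genes. There were 0 unmapped columns.

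Group means entered a linear model of limma 3.58.1 under R 4.3.3 (functions lmFit and eBayes, 4 residual degrees of freedom), with Benjamini-Hochberg adjustment over all genes and calls at an adjusted p under 0.05. Intervals are 95% intervals of that fit. Replicate numbers come from the titles. Between groups, the replicate 1 minus replicate 2 differences correlated at 0.20 to 0.51 in all 6 pairs of groups, so the numbers were taken to pair the arrays. A shift shared by arrays of the same number is part of the spread in the fit without a block. The SEs, intervals and p-values come from that fit unless the block is named, and the fit with the number as a block was an alternative. The others were leaving out each array, quantile normalization, median centring, bright genes only, probe set means, an intensity trend, array weights, all probe sets and a linear scale.

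Named genes are, among genes above background and leaving out small RNA, uncharacterised, antisense and olfactory genes, the 12 with the smallest interaction p each way whose sign held whichever array of each pair was used. To these come the 3 with the smallest p each way over all genes, the 8 with the smallest p for each average effect, the 2 with the smallest p in each of 35 lists, and steroid receptors. The lists of genes past 1.5-fold in both comparisons, GDF15, ABCA1, the small RNA class, VTRNA1-1 and VIM were named after their values were seen. Members and lists were chosen with earlier results of these data known, and lists are described by counts and medians without a test. The scripts were tested on simulated data.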

Additional observations from a re-analysis of the deposited data

How the results depend on the processing

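No gene was called for the interaction under any alternative: the replicate block, quantile normalization, median centring, bright genes only, probe set means, an intensity trend, array weights, each array left out, or all 33297 probe sets (smallest limma adjusted p = 0.0978, with 1618 probe sets at an unadjusted p under 0.05). The number of genes at an unadjusted p under 0.05, 972 as reported, was 1504 with the replicate block and 1488 with median centring, and it ranged from 464 to 3313 when 1 array was left out. The replicate block, which pairs arrays of the same number, changed no call of the interaction, and it left 4 of the 6 average RU-486 calls. Bright genes alone gave 909 of 13656, of which 83.3% were higher, an intensity trend 1083 with 77.7%, quantile normalization 764, probe set means 983, and array weights, which were 0.34 for progesterone and 1.19 to 1.67 for the other groups, 793. Under median centring the median interaction of all genes was 0.07 instead of 0.01, and the signs turned for PGRMC2 (0.021) and PAQR8 (0.054). With 1 array left out, signs turned for PGRMC2 (-0.15 to 0.084), PAQR8 (-0.094 to 0.090), ETV1 (-0.12 to 0.13), ACTR6 (-0.028 to 0.26), NUPR1 (-0.14 to 0.26) and ESR1 (-0.012 to 0.20). On a linear scale ETV1 was at -2.25% of its vehicle level. The cause of these shifts was not tested. Directions were followed for the 12 named genes each way, the 8 of each average effect and the receptors. Over all alternatives they were kept in 716 cases and turned in 17, but many cases could not turn. The 12 each way were chosen for a sign that held whichever array was used. The replicate block, intensity trend and array weights leave the estimate as it was. List medians stayed within the replicate spread of the list in 463 cases and moved beyond it in 62. With 2 arrays a group, the median unadjusted interval of a gene's interaction reached about 0.37 on the log2 scale to either side. That width is not the limit for a call over all genes, which lay higher. The interaction of SNORA14B, 1.09, had a limma adjusted p of 0.828. Values of genes under a level of 6.22 are near the array background.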
